A study of Mus musculus with 6 samples.

Results

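The genes described here write, support or erase methylation of lysine 4 of histone H3 (H3K4), the mark that the PHD finger protein Phf13 reads. They were taken by name from a list of 33 genes, and every probe set whose platform annotation gives exactly 1 of these symbols was taken. This found 95 probe sets for 32 genes, of 45037 probe sets and 18193 named genes in all. Ash1l had no such probe set and was not analysed here. Levels were measured on Affymetrix arrays in total RNA of whole testis from Phf13 knockout mice (3 arrays) and from wild-type mice (3 arrays), all 5 weeks old. The sources used here name neither the strain nor the knockout allele, nor do they say whether each array came from another animal, so the spread between arrays may be technical.

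In mammals, H3K4 is methylated by SET domain enzymes of the KMT2 and SETD1 families, which work as complexes around a shared core of Wdr5, Rbbp5, Ash2l and Dpy30. Trimethylation marks active promoters, and monomethylation marks enhancers. Demethylases of the LSD type (Kdm1a, Kdm1b) remove mono- and dimethyl groups with flavin, and those of the KDM5 family remove trimethyl groups with a JmjC domain. In the testis the mark also accompanies meiotic recombination hotspots, and germ cells pass from mitosis through meiosis to spermatids, so a level in whole testis is a mixture over these cells and the somatic cells around them.

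Several of these proteins (Cxxc1, Kmt2a, Kmt2b and Kdm2a) carry a CXXC zinc finger that binds unmethylated CG dinucleotides, and CG was therefore counted in the members' own promoters. RefSeq promoter windows of GRCm38.p6, from 250 bases before to 50 bases after a transcription start, were found for 22 of the 33 genes (27 windows). The 11 genes without a window included Cxxc1, Kmt2b, Kdm2a and Kdm6b. Of these, Cxxc1 and Kdm6b were the members below wild type at an unadjusted p under 0.05 on their brightest probe sets, so neither could be printed. These windows held a median of 22 CG, against 7 over all 32851 windows. Of the 27 windows, 17 had 20 CG or more, a count reached by 26.5% of all windows. The promoters of 4 members described below are shown first, those of Wdr82, Rbbp5, Hcfc1 and Kdm5c, the members with a mean above wild type at an unadjusted p under 0.05 (none passed the adjusted threshold), followed by that of Smyd1, a gene of heart and skeletal muscle, as an example with few CG. Each is printed 5′ to 3′ on the gene's strand with every CG in capitals (CG reads the same on both strands).
Wdr82 (chr9:106170679-106170978, + strand): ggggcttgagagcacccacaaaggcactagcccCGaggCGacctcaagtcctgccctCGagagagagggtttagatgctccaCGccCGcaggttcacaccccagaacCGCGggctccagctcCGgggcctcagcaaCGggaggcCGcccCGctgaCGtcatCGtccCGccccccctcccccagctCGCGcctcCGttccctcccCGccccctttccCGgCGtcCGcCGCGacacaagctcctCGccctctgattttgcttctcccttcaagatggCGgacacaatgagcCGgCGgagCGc
Rbbp5 (chr1:132477117-132477416, + strand): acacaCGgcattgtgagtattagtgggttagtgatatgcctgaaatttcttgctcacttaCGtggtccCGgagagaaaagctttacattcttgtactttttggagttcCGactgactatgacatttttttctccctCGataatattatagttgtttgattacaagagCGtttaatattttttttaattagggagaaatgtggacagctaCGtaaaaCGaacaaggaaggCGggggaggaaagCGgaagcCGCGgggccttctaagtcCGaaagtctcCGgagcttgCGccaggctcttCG
Hcfc1 (chrX:73966308-73966607, - strand): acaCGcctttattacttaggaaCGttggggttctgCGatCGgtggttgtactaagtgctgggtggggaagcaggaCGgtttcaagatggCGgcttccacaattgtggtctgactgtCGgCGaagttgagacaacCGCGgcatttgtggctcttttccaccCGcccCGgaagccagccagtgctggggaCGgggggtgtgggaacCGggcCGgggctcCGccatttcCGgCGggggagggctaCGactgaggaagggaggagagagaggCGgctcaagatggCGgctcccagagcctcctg
Kdm5c (chrX:152232977-152233276, + strand): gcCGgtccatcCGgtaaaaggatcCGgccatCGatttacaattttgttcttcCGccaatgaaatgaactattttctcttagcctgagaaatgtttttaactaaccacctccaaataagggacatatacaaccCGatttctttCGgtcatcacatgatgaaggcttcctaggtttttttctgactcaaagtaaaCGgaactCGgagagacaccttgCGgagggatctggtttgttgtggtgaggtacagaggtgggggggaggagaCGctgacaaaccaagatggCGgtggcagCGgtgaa
Smyd1 (chr6:71262232-71262531, - strand): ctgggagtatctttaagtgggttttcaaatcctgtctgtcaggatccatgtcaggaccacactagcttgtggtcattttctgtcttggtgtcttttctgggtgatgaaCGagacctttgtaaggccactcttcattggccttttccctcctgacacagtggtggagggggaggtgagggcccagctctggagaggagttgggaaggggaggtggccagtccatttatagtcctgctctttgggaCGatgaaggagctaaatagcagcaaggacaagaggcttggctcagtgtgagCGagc
The Wdr82 window held 28 CG, a number that 14.2% of all windows reach, and that of Hcfc1 held 21 (24.8%). Rbbp5 had 16 (33%) and Kdm5c 13 (37.9%). Smyd1 had 3, which 76.7% of windows reach. Among the members, the window of Kmt2c was the richest, with 56 CG, and those of Ncoa6 and 1 start of Dpy30 were the poorest, with 1 each. These counts describe letters and were not compared with the expression differences.

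The label of each array was checked on the targeted gene. Phf13 stood at 6.71, 6.60 and 6.55 on the log2 scale in the 3 knockout arrays, against 9.55, 9.47 and 9.56 in the 3 wild-type arrays, and fell by 2.91 (limma adjusted p = 7.7e-06). All knockout arrays lay below all wild-type arrays. The arrays also formed 2 sets of 3 by the signal of the 18S rRNA controls, which averaged 10.09 ± 0.54 in knockout 2, knockout 3 and wild type 3 and 12.35 ± 0.32 in knockout 1, wild type 1 and wild type 2 (SD, n = 3 each). The actin control, read at its 3′ end less its 5′ end, gave 0.56 to 0.59 in the low 18S set and 0.75 to 0.89 in the high one. The arrays of the low 18S set are also those of a single run of adjoining title codes, so blocks by 18S set and by title run overlap. Wild type 1 is alone in its run and so drops out of the genotype contrast under the title run block. Each 18S set holds both genotypes, so results below are also given inside each set.

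None of the 95 member probe sets passed limma's test at an adjusted p under 0.05, where 0.0999% of all probe sets did (45 of 45037). The smallest adjusted p among members was 0.144. Without the array wild type 3, 4 member probe sets passed (2.61% of all probe sets did), and with array weights 9 did (7.07% of all). The 4 belonged to Kmt2d, Kdm6b, Kdm5b and Rcor1, and the 9 to Ash2l, Cxxc1, Kdm5a, Kdm5b, Kdm5c, Smyd1, Wdr82 and Kdm6b, the last with 2 probe sets. The smallest weights were those of knockout 1 (0.383) and wild type 3 (0.601), against 0.741 to 2.738 for the rest. Knockout 1 is the only knockout array of the high 18S set, and wild type 3 the only wild-type array of the low one. Both alternatives thus bring the genotype contrast closer to that between the 18S sets. At an unadjusted p under 0.05, 6 member probe sets were higher in knockout (6.32%, against 6.81% of all probe sets) and 13 were lower (13.7%, against 8.31%). A fit on only the probe sets above the median level held 67 member probe sets. Of these, 18 reached that p in either direction, against 22.3% of all probe sets in that fit. The members leaned slightly to lower values in knockout: 66 of 95 probe sets had a difference below 0, against 48.6% of all probe sets, and their median difference was -0.06, against 0.00 over all. With 1 probe set a gene (the one with the highest mean over the 6 arrays, as used for every gene below unless stated), 20 of 32 members were below 0, against 47.9% of all genes, and the median was -0.05, against 0.01 over all genes. That median was -0.00 inside the low 18S set and -0.10 inside the high one. At an unadjusted p under 0.05 there were 4 genes higher (12.5%, against 8.58% of all genes) and 2 lower (6.25%, against 8.72%). The groups did not overlap in 5 probe sets with knockout above (8.62% of all probe sets) and in 14 with knockout below (10.7%). In bulk tissue, fewer cells of a type and less RNA per cell cannot be told apart.

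Of the 95 member probe sets, 67 lay above the median level of all probe sets and 13 below the lower quartile. The 95% interval of the difference (moderated limma standard error, not adjusted for the number of genes) lay between -1 and 1 for all 32 members, and between -0.5 and 0.5 for 23 of them. The half-width of these intervals ran from 0.19 to 0.43. In 31 of 32 genes the difference was smaller than 0.5 in size. The exception was Kdm6b.

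**Figure D1:**
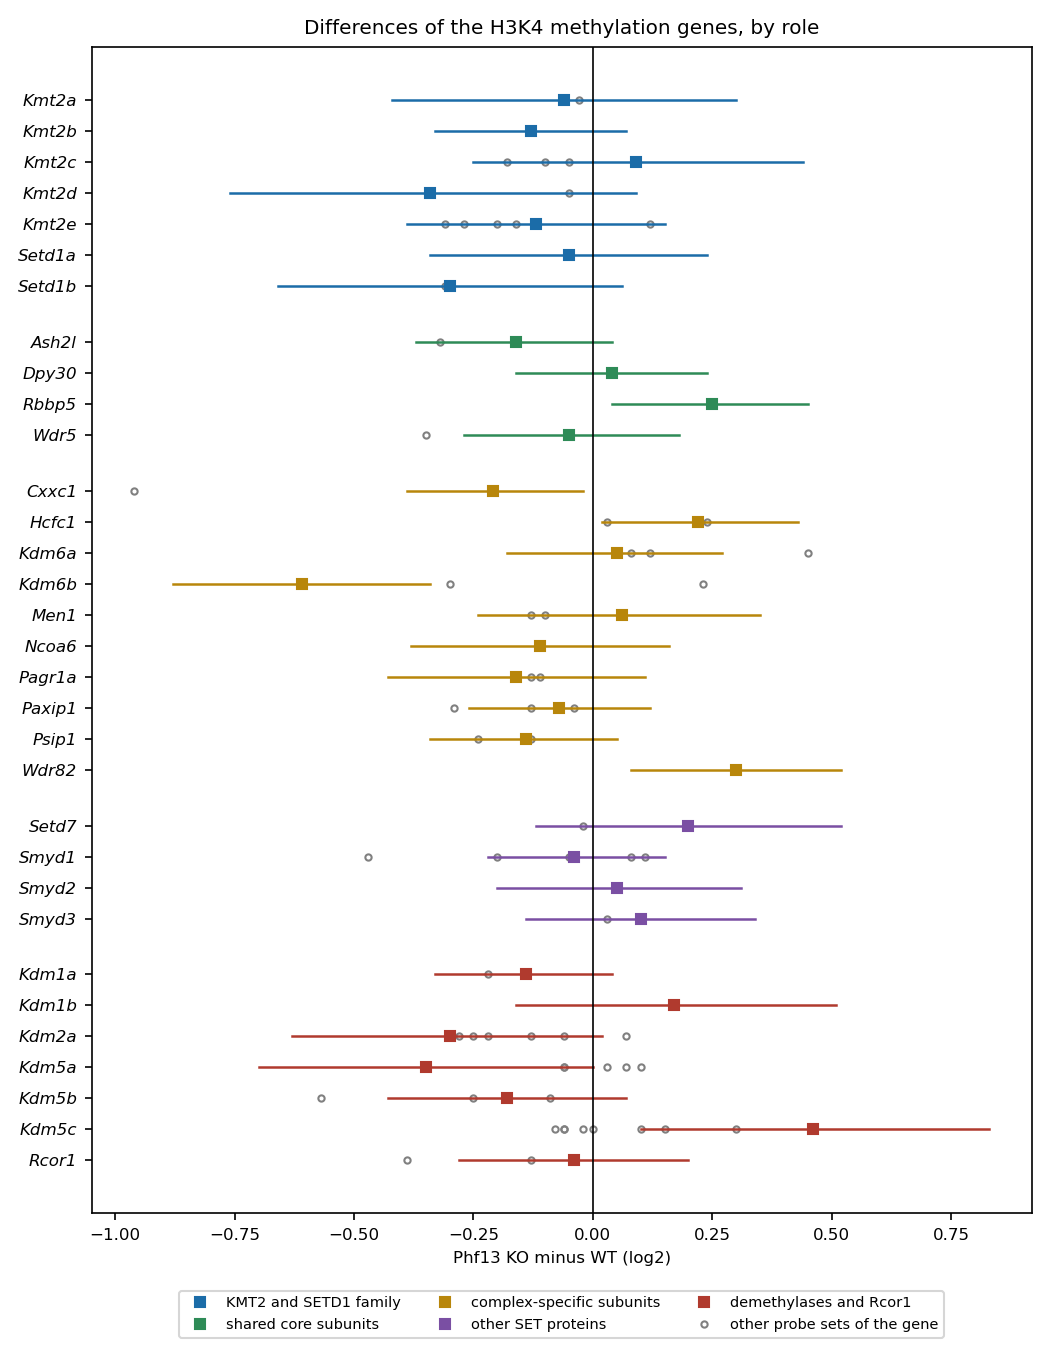
Difference between Phf13 knockout and wild type (log2, horizontal axis) for the 32 members, grouped by role; squares are the probe set with the highest mean, bars its 95% interval and open circles the gene's other probe sets. Kdm6b lies farthest to the left at -0.61 and Kdm5c farthest to the right at 0.46 among the squares.

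The large enzymes that deposit the mark differed little. Of 7 measured KMT2 and SETD1 genes, 6 had a difference below 0 and 1 above, with a median of -0.12, and none reached an unadjusted p under 0.05. The value nearest to the threshold was that of Setd1b, a catalytic subunit of the complexes that make most promoter trimethylation. Setd1b stood at 7.24, 7.21 and 7.04 in knockout, against 7.56, 7.72 and 7.10 in wild type. The groups overlapped, because wild type 3 was as low as the knockout arrays. Its difference was -0.30 (SE 0.16, limma adjusted p = 0.41), and its other probe set gave -0.31. The difference was -0.17 without wild type 2, -0.48 without wild type 3 and -0.19 with the 18S set or runs of adjoining title codes as a block.

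Kmt2d, the main enhancer monomethyltransferase together with Kmt2c, showed the same array pattern. Its brighter probe set read 8.32, 8.10 and 8.04 in knockout, against 8.75, 8.69 and 8.03 in wild type. The groups overlapped through wild type 3. The difference was -0.34 (SE 0.19, limma adjusted p = 0.433), and its other probe set differed by -0.05. Kmt2c differed by 0.09 on its brightest probe set and by -0.18 to -0.05 on the other 3. Kmt2a, the mixed-lineage leukaemia gene that keeps Hox genes active, differed by -0.06 (95% interval -0.42 to 0.30). Its close relative Kmt2b, which trimethylates CG-rich promoters in germ cells and embryonic stem cells, differed by -0.13 (-0.33 to 0.07). Setd1a, the paralog of Setd1b in a complex of its own, differed by -0.05 (-0.34 to 0.24). Kmt2e, a family member for which no strong methyltransferase activity is known, differed by -0.12. Of its 6 probe sets 5 were below 0, and 1 of them, at -0.31, reached an unadjusted p under 0.05.

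In 6 of these 7 enzymes wild type 3 was the lowest wild-type array, and this array is the only wild-type member of the low 18S set. In a fit with genotype and 18S set together, 4 of the 7 were lower in the low 18S set at an unadjusted p under 0.05, against 4.03% of all genes, and none was higher, with a median of -0.28 for low minus high. Over all members, 18 of 95 probe sets were lower in the low 18S set at that p and 5 were higher, against 7.21% and 8.09% of all probe sets. No member passed the adjusted threshold for the set, which 0.06% of all probe sets did. Inside the sets the median knockout minus wild-type difference of the 7 enzymes was 0.08 in the low 18S set and -0.10 in the high one. Without wild type 3, Kmt2d differed by -0.57 and passed (limma adjusted p = 0.048). Inside the low 18S set it differed by 0.04, and inside the high one by -0.40.

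**Figure D2:**
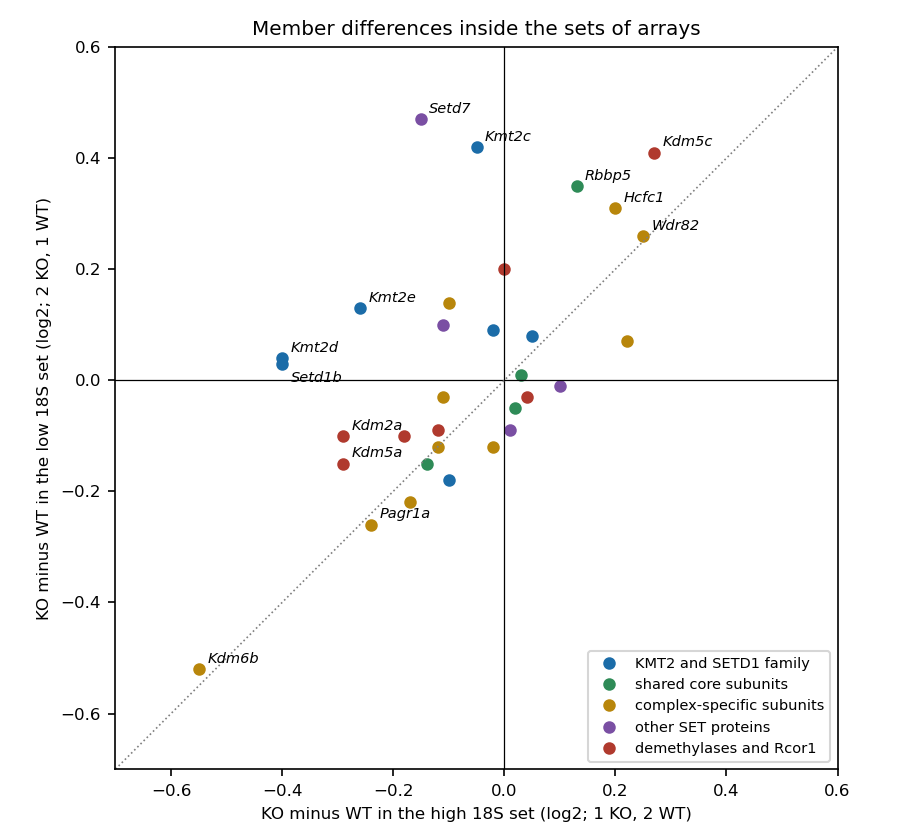
Knockout minus wild-type difference (log2) of each of the 32 members inside the high 18S set (horizontal axis, 1 knockout and 2 wild-type arrays) and inside the low 18S set (vertical axis, 2 knockout arrays and 1 wild-type array); the dotted line marks equal values. Kdm6b lies at -0.55 and -0.52, close to that line, while Kmt2d and Setd1b, both at -0.40 on the horizontal axis, lie near 0 on the vertical one.

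The shared core subunits differed with both signs, 2 above and 2 below 0, and none passed the threshold. Rbbp5, a WD40 protein that with Ash2l activates the SET domain, read 6.50, 6.62 and 6.64 in knockout, against 6.32, 6.42 and 6.28 in wild type. The groups did not overlap, a pattern seen with knockout above in 9.92% of all genes. The difference was 0.25 (SE 0.09, limma adjusted p = 0.27), with 0.35 in the low 18S set and 0.13 in the high one. Dpy30, the small subunit that docks on Ash2l, read 11.46, 11.49 and 11.56 in knockout, against 11.49, 11.38 and 11.52 in wild type, a difference of 0.04 with a 95% interval from -0.16 to 0.24.

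The other core subunits had probe sets that gave different sizes. Ash2l read 10.61, 10.65 and 10.47 in knockout, against 10.77, 10.74 and 10.71 in wild type, on its brighter probe set, with a difference of -0.16 (SE 0.09, limma adjusted p = 0.42). Its dimmer probe set read 5.74, 5.72 and 5.73 in knockout, against 6.05, 6.13 and 5.98 in wild type, with a difference of -0.32 (SE 0.08, limma adjusted p = 0.207). On both, every knockout array lay below every wild-type array, as in 10.7% of all probe sets. Wdr5, which holds the SET enzyme by its WIN motif, differed by -0.05 on the brighter probe set (95% interval -0.27 to 0.18) and by -0.35 on the dimmer one (-0.59 to -0.11). The sources used here do not say which transcripts each probe set of a gene detects.

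Among the 10 subunits and partners of single complexes, 4 were above and 6 below 0. Kdm6b, an H3K27 demethylase gene listed with them, had the largest difference of all members on the brightest probe sets. Kdm6b read 8.07, 7.80 and 7.94 in knockout, against 8.73, 8.51 and 8.39 in wild type. Every knockout array lay below every wild-type array, and the means were 7.94 ± 0.14 and 8.54 ± 0.17 (SD, n = 3 each). The difference of -0.61 (SE 0.12, 0.657 of the wild-type level) missed the threshold with a limma adjusted p of 0.144. It was -0.52 inside the low 18S set and -0.55 inside the high one, and passed without wild type 3 (-0.68, adjusted p = 0.0305) and with array weights (-0.68, adjusted p = 0.0184). Over all 15 alternatives its adjusted p ran from 0.0184 to 0.529, and the mean of its 3 probe sets differed by -0.23. Another probe set of Kdm6b, of a type that can bind other transcripts, read 7.71, 7.56 and 7.69 in knockout, against 8.02, 8.01 and 7.84 in wild type (difference -0.30). The dimmest one, at 4.44 ± 0.18 in knockout and 4.20 ± 0.10 in wild type (SD, n = 3 each), differed by 0.23. Kdm6b removes methyl groups from lysine 27 of histone H3 and is known as an inducible gene of inflammation and differentiation. Its X-linked relative Kdm6a, a fixed subunit of the Kmt2c and Kmt2d complexes, differed by 0.05 on its brightest probe set and by 0.08 to 0.45 on the other 3.

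The SETD1 partners Wdr82 and Cxxc1 differed with opposite signs, and neither passed the threshold. Wdr82, which ties SETD1 to initiating RNA polymerase II, read 8.80, 8.95 and 8.95 in knockout, against 8.48, 8.62 and 8.69 in wild type. The groups did not overlap. The difference was 0.30 (SE 0.10, limma adjusted p = 0.24), nearly equal inside the low 18S set (0.26) and the high one (0.25), and it passed with array weights (0.34, adjusted p = 0.0412). Cxxc1, the CG-binding subunit that brings SETD1 to unmethylated promoters, read 8.75, 8.72 and 8.66 in knockout, against 8.89, 8.95 and 8.91 in wild type. These groups did not overlap either, with knockout below, as in 13.5% of all genes. The difference was -0.21 (SE 0.08, limma adjusted p = 0.297), and -0.22 in the low 18S set and -0.17 in the high one. The mean of its probe sets differed by -0.58.

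A dimmer probe set of Cxxc1 gave the widest difference of any member probe set and also the widest spread. It read 6.07, 5.09 and 5.11 in knockout, against 6.36, 6.97 and 5.83 in wild type. The groups overlapped, the difference was -0.96 (SE 0.33, limma adjusted p = 0.256), and the low 18S set was lower than the high one by a fitted difference of -0.90. It passed with array weights (-1.42, limma adjusted p = 0.0258).

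The partners of Kmt2a and Kmt2b included Hcfc1, an X-linked scaffold protein that binds promoter factors. Hcfc1 read 7.25, 7.17 and 7.27 in knockout, against 7.08, 7.03 and 6.91 in wild type. The groups did not overlap, and the difference was 0.22 (SE 0.09, limma adjusted p = 0.299). The dimmer probe sets of Hcfc1 differed by 0.24 and 0.03. Men1, which encodes menin, differed by 0.06 on its brightest probe set, of a type that can bind other transcripts, and by -0.10 and -0.13 on the others. Psip1 (LEDGF), which tethers menin and Kmt2a to chromatin, differed by -0.14, -0.13 and -0.24 on its 3 probe sets. The first of these read 11.13, 11.12 and 11.02 in knockout, against 11.24, 11.27 and 11.19 in wild type, with no overlap. The subunits of the Kmt2c and Kmt2d complexes Paxip1 (-0.07), Pagr1a (-0.16) and Ncoa6 (-0.11) had 95% intervals that included 0.

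**Figure D3:**
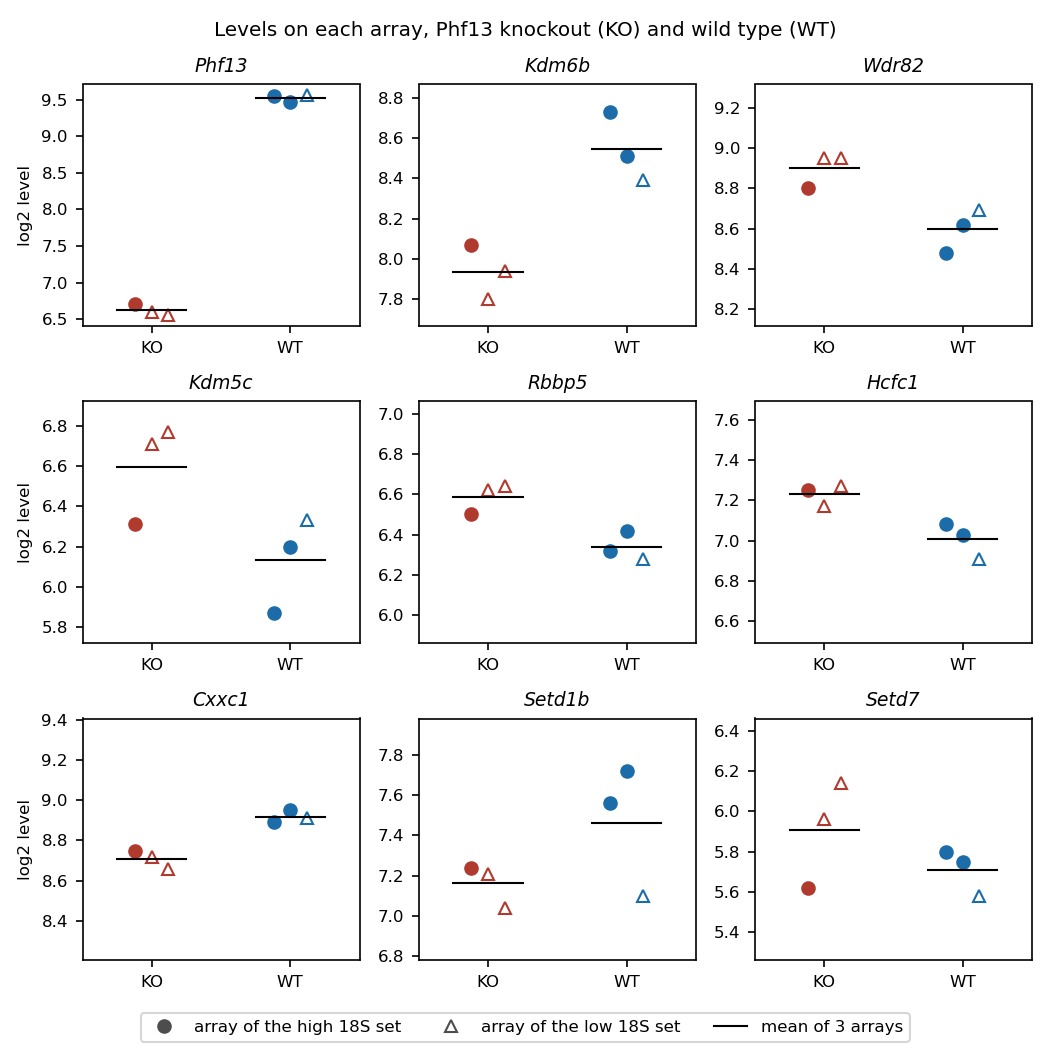
Level (log2, vertical axis, which differs in range between panels) on each array of Phf13 and of 8 members, knockout left and wild type right; filled circles are arrays of the high 18S set, open triangles those of the low one, and lines are means of 3 arrays. The knockout arrays of Kdm6b (7.80 to 8.07) lie below those of wild type (8.39 to 8.73), and the groups of Setd1b and Setd7 overlap.

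The SET proteins outside these complexes had 3 differences above 0 and 1 below, none past the threshold. Setd7, which monomethylates H3K4 in vitro and also many proteins other than histones, read 5.62, 5.96 and 6.14 in knockout, against 5.80, 5.75 and 5.58 in wild type. Knockout 1 lay within the wild-type range. The difference was 0.20 (SE 0.14, limma adjusted p = 0.538), with 0.47 in the low 18S set and -0.15 in the high one. It was 0.34 without knockout 1, 0.08 without knockout 3 and 0.13 without wild type 3, and the mean of both probe sets differed by 0.09. Smyd2 differed by 0.05 and Smyd3 by 0.10. For the muscle gene Smyd1, whose promoter had the fewest CG of those printed, the brightest of 6 probe sets differed by -0.04. That probe set is of a type that can bind other transcripts. The others ran from -0.47 to 0.11, and the -0.47 came from a probe set that stood at 4.56 ± 0.14 in knockout and 5.03 ± 0.26 in wild type (SD, n = 3 each).

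Of the 7 genes in this group, the demethylases and Rcor1, 2 were above and 5 below 0, with a median of -0.14, and none passed the threshold. Kdm5c, an X-linked trimethyl demethylase, read 6.31, 6.71 and 6.77 in knockout, against 5.87, 6.20 and 6.33 in wild type. Knockout 1 lay just under wild type 3, so the groups overlapped. The difference was 0.46 (SE 0.16, limma adjusted p = 0.257), and it was 0.41 inside the low 18S set and 0.27 inside the high one. It passed with array weights (0.55, adjusted p = 0.0344), was 0.28 with runs of adjoining title codes as a block, and was 0.09 for the mean of its 9 probe sets. Of these 9, 4 were above 0 and 5 below, and the other 8 ran from -0.08 to 0.30. The 0.30 was at an unadjusted p under 0.05 and came from 5.89, 5.92 and 6.06 in knockout, against 5.68, 5.78 and 5.50 in wild type.

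On their brightest probe sets the autosomal KDM5 genes were below 0. Kdm5a, the retinoblastoma-binding demethylase, differed by -0.35 on its brightest probe set (SE 0.15, limma adjusted p = 0.335), which read 8.30, 7.90 and 8.06 in knockout, against 8.61, 8.57 and 8.13 in wild type. Wild type 3 lay within the knockout range. With array weights it passed, at -0.51 (limma adjusted p = 0.0421). Its other 5 probe sets ran from -0.06 to 0.10. Kdm5b, a demethylase of stem and germ cells known for its testis expression, differed by -0.18 and by -0.57, -0.25 and -0.09 on dimmer probe sets. The -0.57 rested on wild type 1 and 2, at 6.51 and 6.25, while wild type 3, at 5.47, matched the knockout arrays at 5.49, 5.53 and 5.49. Without wild type 3 this probe set passed, at -0.88 (limma adjusted p = 0.00917). Inside the low 18S set it differed by 0.04, and inside the high one by -0.89.

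Of the flavin demethylases, Kdm1a (LSD1), needed for spermatogonial maintenance in mice, read 10.54, 10.60 and 10.54 in knockout, against 10.73, 10.71 and 10.67 in wild type. The groups did not overlap, and the difference was -0.14 (SE 0.08, limma adjusted p = 0.44); its other probe set gave -0.22. Kdm1b, known from imprint setting in oocytes, differed by 0.17 (95% interval -0.16 to 0.51). Rcor1 (CoREST), which lets Kdm1a act on nucleosomes, differed by -0.04 on its brightest probe set. Another probe set of Rcor1 read 7.32, 7.22 and 7.06 in knockout, against 7.86, 7.78 and 7.12 in wild type (difference -0.39), and passed without wild type 3 (-0.62, limma adjusted p = 0.0315). Here too wild type 3 lay among the knockout arrays, and the difference was 0.02 in the low 18S set and -0.50 in the high one. Kdm2a, a CXXC protein that acts mainly on lysine 36, differed by -0.30 (95% interval -0.63 to 0.02), with 6 of its 7 probe sets below 0.

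The X-linked members were set beside the other genes of their chromosome. On the brightest probe sets Kdm5c (0.46), Hcfc1 (0.22) and Kdm6a (0.05) were above 0, and over all 16 probe sets of these genes 11 were above and 5 below 0, with a median of 0.09. Of 29 autosomal members, 9 were above and 20 below 0, with a median of -0.07. Of 617 X-linked genes on the array, 553 were above 0, with a median of 0.27, against 0.00 over 17401 autosomal genes. None of the 617 passed limma's adjusted threshold, while at an unadjusted p under 0.05 there were 284 higher in knockout and 1 lower. The X-linked median was 0.28 inside the low 18S set and 0.18 inside the high one. Of the 617, 502 had a smaller difference than Kdm5c, 257 a smaller one than Hcfc1 and 91 a smaller one than Kdm6a, so these members lie within the range of X-linked genes. In mice the X chromosome is silenced during male meiosis, and somatic cells and spermatogonia express it.

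**Figure D4:**
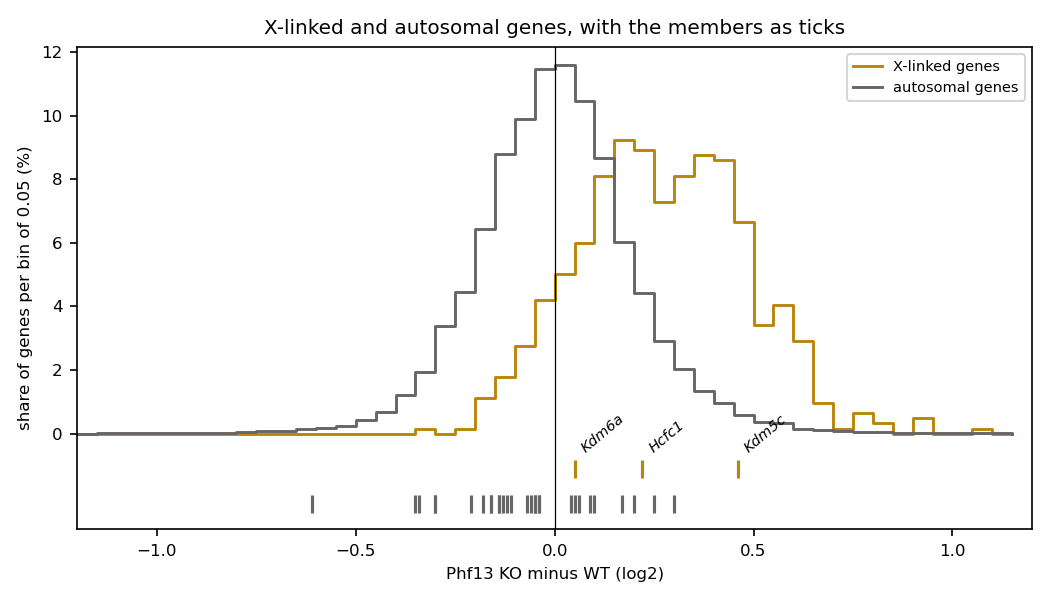
Share of genes (%, vertical axis) in bins of the knockout minus wild-type difference (log2, horizontal axis) for 617 X-linked and 17401 autosomal genes, with ticks below for the 3 X-linked members (upper row) and the 29 autosomal members (lower row); genes beyond the axis are not drawn. The X-linked curve is centred at 0.27 and the autosomal one at 0.00, and the ticks of Kdm6a, Hcfc1 and Kdm5c lie at 0.05, 0.22 and 0.46.

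Markers of testis cell types were read beside the members. All 13 measured Sertoli cell markers lay above 0 (median 0.40). None passed limma's adjusted threshold, with 9 higher at an unadjusted p under 0.05, where 8.58% of all genes were higher and 8.72% lower. At that p 4 peritubular and stromal, 3 adipose and 2 Leydig markers were also higher, and 4 spermatocyte and 2 spermatogonial markers were lower. For the 13 Sertoli markers the log2 of the summed linear level ran from 14.52 to 14.67 in knockout, against 14.15 to 14.27 in wild type. For the 12 spermatocyte markers it ran from 14.88 to 14.91 in knockout, against 14.92 to 14.97 in wild type, with 8 below 0 and a median of -0.09. For the 12 spermatid markers it ran from 16.46 to 16.47 in knockout, against 16.44 to 16.50 in wild type, with a median of 0.02. The 9 spermatogonial markers had a median of 0.01 and summed levels from 11.05 to 11.17 in knockout, against 11.19 to 11.25 in wild type. Of the 9, 5 were above 0 and 4 below, and this sum is weighted to the brightest, Id4 (mean 10.30 in knockout, 10.53 in wild type). All 8 peritubular and stromal markers but 1 were above 0 (median 0.33, summed levels 11.51 to 11.97 in knockout and 11.13 to 11.22 in wild type). Tcf21 (1.00), Dcn (0.95), Pdgfra (0.55) and Acta2 (0.49) differed most. Tagln (0.16), Myh11 (0.11), Des (0.01) and Cnn1 (-0.11) differed less. Leukocyte markers had a median of 0.29, with summed levels from 9.38 to 10.47 in knockout, against 9.50 to 9.80 in wild type. The 5 Leydig markers had a median of 0.28 (summed levels 11.81 to 12.38 in knockout and 11.63 to 12.01 in wild type) and the 5 adipose markers a median of 0.34 (8.99 to 9.50 in knockout and 8.50 to 8.87 in wild type). Inside the low and the high 18S set the leukocyte median was 0.32 and -0.09 and the Leydig median 0.34 and -0.09, so both turned sign. So did the small medians of spermatogonia (0.05 and -0.12) and spermatids (-0.02 and 0.02). The Sertoli median (0.35 and 0.32), the peritubular and stromal median (0.52 and 0.18), the adipose median (0.27 in both) and the spermatocyte median (-0.11 and -0.08) kept theirs. The part of cell type proportions in the members' differences was not tested.

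Genes listed with the readers of H3K4 trimethylation were measured beside the writers and erasers. Of 20 genes of this list, 1 passed, Phf13 itself. Counting it, an unadjusted p under 0.05 was reached by 2 above and 4 below 0 (8.58% and 8.72% of all genes), and the list median was -0.06. The 2 were Spin1 and Phf8, and the 4 were Phf13, Chd1, Phf1 and Pygo2. Spin1, a Tudor-domain reader, read 10.56, 10.61 and 10.74 in knockout, against 10.22, 10.30 and 10.20 in wild type (difference 0.40, SE 0.09, limma adjusted p = 0.185). Chd1, a chromodomain remodeller, read 6.99, 6.94 and 6.97 in knockout, against 7.27, 7.33 and 7.32 in wild type (difference -0.34, SE 0.08, limma adjusted p = 0.188). Neither gene's groups overlapped.

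The remaining genes near this pathway included the Y-linked relatives of Kdm5c and Kdm6a. Among 13 genes listed as other writers and erasers, not all of which act on H3K4, none passed limma's adjusted threshold. An unadjusted p under 0.05 was reached by 2 on each side (8.58% of all genes above and 8.72% below), and the median was -0.01. Those above were Uty and Kdm5d, and those below Nsd3 and Nsd2. Kdm5d read 4.27, 4.81 and 4.67 in knockout, against 4.21, 4.28 and 4.12 in wild type (difference 0.38, limma adjusted p = 0.276), with 0.62 in the low 18S set and 0.02 in the high one. Uty read 5.63, 5.45 and 5.35 in knockout, against 4.95, 5.26 and 5.24 in wild type (difference 0.33, limma adjusted p = 0.273). The groups did not overlap for Uty and overlapped for Kdm5d. Nsd3, a lysine 36 methyltransferase, had the smallest p of this list and read 7.94, 7.57 and 7.65 in knockout, against 8.30, 8.05 and 8.17 in wild type (difference -0.45, SE 0.12, limma adjusted p = 0.21). Prdm9, the meiotic enzyme that trimethylates H3K4 at recombination hotspots, read 4.73, 4.98 and 5.06 in knockout, against 4.74, 4.81 and 4.84 in wild type, a difference of 0.13 with overlapping groups.

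Partners of the LSD1 complex gave 11 measured genes with a median of -0.04, of which none passed limma's adjusted threshold and 4 had an unadjusted p under 0.05 (2 on each side, against 8.58% of all genes above and 8.72% below). Rcor3, a paralog of Rcor1, read 9.46, 9.44 and 9.30 in knockout, against 9.82, 9.82 and 9.67 in wild type (difference -0.37, SE 0.09, limma adjusted p = 0.198). Phf21a, which reads unmethylated H3K4 for this complex, read 8.78, 8.77 and 8.65 in knockout, against 9.28, 9.31 and 8.89 in wild type (difference -0.43, SE 0.13, limma adjusted p = 0.223). In both genes all knockout arrays lay below all wild-type arrays.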

How the data were processed

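Per the labels, biotinylated cRNA was made from total RNA of whole testis and hybridised to 1-colour Affymetrix arrays. The deposited values are on a log2 scale and were made by the authors in Expression Console 1.4.1 of Affymetrix, a version credited to the submitters' processing notes. The sources used here do not name the summarisation or normalization method. The array medians lay between 5.22 and 5.28, so no further scaling was applied. Of 45101 probe sets, 64 controls were left out, and 34945 of the rest have 1 gene symbol in the platform annotation, 932 several and 9160 none.

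Knockout was compared with wild type with limma 3.58.1 (R 4.3.3, lmFit and eBayes, two-sided, Benjamini-Hochberg over 45037 probe sets, threshold 0.05), with no filter on low values. The fit was tested on simulated data. The 3 arrays per group limit the precision, and the p-values reflect no more than the spread among them. The level of one probe set was not set against that of another. Array-by-array values are given for Phf13, for genes whose brightest probe set had an unadjusted p under 0.05, for the smallest p of other role groups, and for the 2 smallest p of each pathway list. Kmt2d, Dpy30, Ash2l, Psip1, Kdm5a, Kdm5b, Kdm1a, Rcor1, Kdm5d and Prdm9 were added after their values were seen. The members and lists were chosen with earlier results of these data known. Alternatives changed the filter, scaling, probe set summary, blocks, weights and arrays used. Same-numbered arrays of both genotypes deviated together with correlations of 0.258, 0.066 and 0.118, and differently numbered ones with -0.199 to 0.128. The main fit did not treat arrays as pairs, and a fit with the replicate number as a block is among the alternatives.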

Additional observations from a re-analysis of the deposited data

How the results depend on the processing

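Followed through the 15 alternatives run were Phf13, Kdm6b, Wdr82, Kdm5c, Rbbp5, Hcfc1, Cxxc1, Setd1b, Setd7, the member median and the counts. None of these differences reversed. The signs of the other members were not followed. Phf13 passed in all alternatives (-2.95 to -2.87 with 1 array left out). Against 45 probe sets called in all, there were 79 among those above the median level, 110 with a trended robust prior, 3186 with array weights, 28 with the replicate block, 16 with runs of adjoining title codes as a block, and 12 to 1176 with 1 array left out (12 without wild type 2, 13 without knockout 3, 17 without wild type 1, 20 without knockout 2, 166 without knockout 1, 1176 without wild type 3). Against 0 member probe sets called, 9 passed with array weights and 0 to 4 with 1 array left out, the 4 without wild type 3. Against 19 member probe sets at an unadjusted p under 0.05 (15.1% of all probe sets reached it), there were 35 with array weights (26.3% of all). With 1 array left out there were 7 to 23, against 9.12% to 18.9% of all. When the probe sets of a gene were averaged, 7 of 32 member genes reached that p, against 18.5% of all genes. With the replicate block 0 members passed and 25 had an unadjusted p under 0.05, against 18.1% of all probe sets. With the 18S set as a block, 43 probe sets and 0 members passed. The median member difference ranged from -0.09 to -0.03 with 1 array left out.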

Other observations

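Further genes that act with the H3K4 writers were read in the same fit. Monoubiquitin on histone H2B, placed with the help of the PAF1 elongation complex, stimulates H3K4 methylation in yeast and mammals. Of 12 genes of that list, none passed limma's adjusted threshold, 1 was higher and 3 were lower at an unadjusted p under 0.05 (8.58% and 8.72% of all genes), and the median difference was -0.00. Usp22, which removes H2B ubiquitin, read 7.65, 7.81 and 7.81 in knockout, against 7.47, 7.34 and 7.43 in wild type (difference 0.34, limma adjusted p = 0.208). Wac, a partner of the H2B ubiquitin ligase, read 9.38, 9.28 and 9.10 in knockout, against 9.41, 9.76 and 9.52 in wild type (difference -0.31, limma adjusted p = 0.293). Neither gene's groups overlapped. Of 11 super elongation complex and menin partner genes, none passed, 1 was higher and 2 were lower at an unadjusted p under 0.05, and the median was -0.07. Ell2, an elongation factor, read 7.32, 7.55 and 7.51 in knockout, against 6.95, 7.15 and 7.11 in wild type (difference 0.39, limma adjusted p = 0.207). Mllt1 (ENL), which reads acylated histone tails, read 7.70, 7.71 and 7.63 in knockout, against 8.14, 8.10 and 7.87 in wild type (difference -0.36, limma adjusted p = 0.214).

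A pair of probe sets carry a member's symbol together with that of another gene and were kept apart from the members. The one shared by Kdm6b and 1700064E03Rik read 5.80, 5.46 and 5.72 in knockout, against 5.67, 5.81 and 5.65 in wild type (difference -0.05). The one shared by Pagr1a and Prrt2 read 3.94, 3.64 and 3.95 in knockout, against 4.03, 4.12 and 3.27 in wild type (difference 0.04). In both the groups overlapped.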
